A study of Mus musculus with 13 samples.

Results

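Of 39569 regions of histone acetylation found in mouse macrophages, 832 (2.10%) were listed as enriched 4 h after interferon-γ (IFNγ) and interleukin-4 (IL-4) were given together, and in neither single-cytokine library at 4 h nor in untreated cells. The mark was H3K27ac, acetylation of lysine 27 on histone H3, measured by chromatin immunoprecipitation and sequencing (ChIP-seq). Each library came with a list of islands, stretches of DNA in which ChIP reads exceeded a control library at a false discovery rate (FDR) under 0.01. Islands of all 13 libraries that overlapped by at least 1 bp were joined into regions. The 832 regions were chosen by the presence or absence of an island in 4 libraries: both cytokines, IFNγ, IL-4 (each at 4 h) and untreated. Their values in those 4 libraries are therefore given as a description, with no test.

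The cells were bone marrow-derived macrophages of C57BL/6 mice on day 7 of culture in L929-conditioned medium, and the antibody was ab4729. In the cytokine experiment, cells received 100 ng/ml IFNγ with 10 ng/ml IL-4, IFNγ alone or IL-4 alone, for 2 h and for 4 h, and 1 library was made of untreated cells. In the knockdown experiment, cells carrying an shRNA named shJunB, shCEBPb or scramble were given 100 ng/ml IFNγ for 4 h or left untreated; no knockdown library had IL-4. Each of the 13 conditions had 1 library, so no difference between single conditions has a replicate check, and the labels do not name the animals or cultures behind a library. In chromatin from a whole culture, more marked cells and more mark per cell cannot be told apart.

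H3K27ac lies on active promoters and enhancers, the sequences that start and boost transcription, and it is added by the acetyltransferases CBP and p300. IFNγ drives the inflammatory, microbe-killing state of macrophages, while IL-4, acting through STAT6, drives a state tied to tissue repair and parasite defence. The pair is often studied because each cytokine restrains part of the program of the other.

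Library totals, worked out for the smallest candidate size of the control library, ran from 14.3 to 37.4 M reads. The both-cytokine library at 4 h was the deepest at 37.4 M reads, against 35.7 M for IFNγ at 4 h, 25.5 M for IL-4 at 4 h and 21.7 M for untreated cells. All 8 macrophage marker genes (Adgre1, Csf1r, Cd68, Itgam, Fcgr1, Spi1, Lyz2 and Mertk) held an island in every library, with summed reads of 45396 to 67849. Of 4 fibroblast markers at most 1, and of 4 mast cell and basophil markers at most 1, held an island in any library, while 2 to 3 of 5 T cell, 3 of 4 B cell, 1 to 2 of 4 neutrophil, 3 of 3 endothelial and 4 of 4 dendritic cell markers held one in each library. Reads are given here as normalised reads, the raw ChIP reads in the islands of a region divided by a size factor of the library (the median ratio over the 14347 regions listed in all 13 libraries). Islands were called separately in each library and often cover a part of the region only, so more reads can mean a longer island as well as a denser one; covered length and reads per covered kb are given beside ratios. A library that lists no island in a region is written as having none listed, which is no measurement of 0.

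The 832 regions were small and weakly enriched. Their median normalised read count with both cytokines was 58.9, with quartiles of 43.5 and 86.3 and a range of 16.1 to 1065. The median over all 24085 regions listed in that library was 284.9. The median enrichment over control, as deposited by the authors, was 1.97-fold, against 3.58-fold for all regions of the library. In raw reads the regions held 24 to 1592, with a median of 88. Their islands had a median length of 2200 bp and the merged regions one of 3200 bp. Under 50 normalised reads lay 303 of them (36.4%), while 150 (18.0%) reached 100 and 30 (3.61%) reached 200.

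The number of such regions was low beside those listed in 1 other library of the same 4. Both cytokines together gave 832 of 24085 listed regions (3.45%), IFNγ alone 2785 of 25236 (11.04%), IL-4 alone 2035 of 23439 (8.68%) and untreated cells 1586 of 21625 (7.33%). The both-cytokine library thus listed the fewest regions of its own although it was the deepest of the 4. Regions of the other 3 sets had median normalised reads of 66.8 (IFNγ), 58.4 (IL-4) and 86.2 (untreated), so all 4 sets lay at the weak end. Another 3846 regions had an island with both cytokines and in exactly 1 of the other 3 libraries.

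Depth alone could decide whether a weak island is listed, so the reads of each region were scaled to the depth of the other libraries and set against the Poisson limit that the deposited p-values follow. This limit is the p of the weakest island listed there, and it leaves out the caller's other steps. At the depth of the IFNγ library 829 of 832 regions would still have passed, at that of the IL-4 library 777, at that of the untreated library 754, and at all 3 depths 754 (90.6%). The scaled reads are those by which each region was listed and chosen, and the IFNγ library was nearly as deep. A high share was therefore built in, and it cannot show whether depth decided membership. The margin was narrow for most. With reads scaled to the least favourable of the 3 libraries, 301 regions (36.2%) had at least 1.5 times the reads needed, 132 (15.9%) at least 2 times and 26 (3.13%) at least 3 times. A region outside those 132 would go unlisted after a drop in reads of less than 2-fold, and whether it differed between libraries was not tested.

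**Figure D1:**
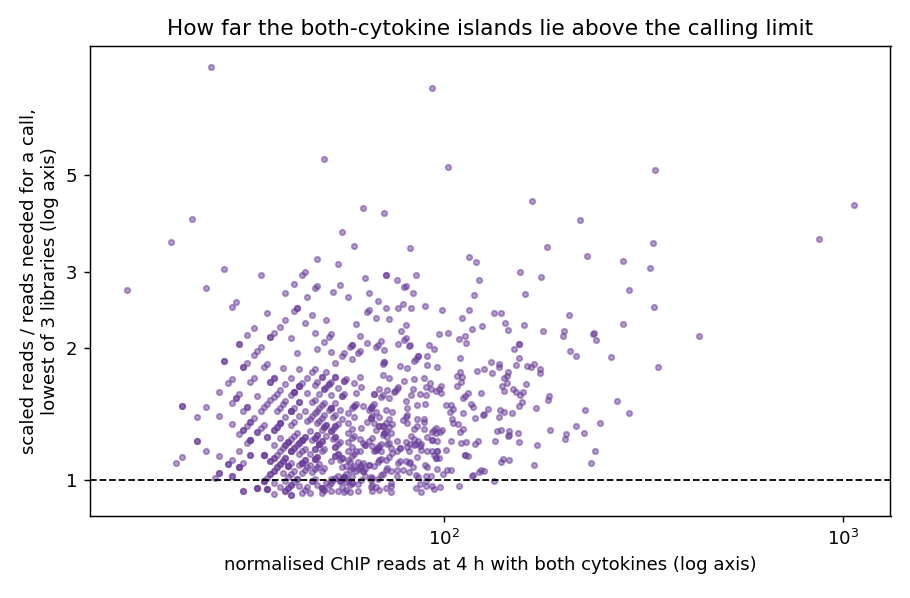
Each point is 1 of the 832 regions, with normalised ChIP reads at 4 h with both cytokines on the x axis and, on the y axis, its reads scaled to the depth of another library divided by the reads needed for a call there, taken for the least favourable of IFNγ 4 h, IL-4 4 h and untreated. Both axes are logarithmic; the dashed line at 1 marks the limit, above which 754 of the 832 regions lie.

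The regions on either side of the threshold had nearly the same values. The 3 regions just inside lay over Ube2d2a (73.6 normalised reads with both cytokines, FDR 0.00953), over Fchsd2 (87.6 reads, FDR 0.00911) and near Snn (49.5 reads, FDR 0.00857). Just outside lay regions that were lost from the set through 1 island barely under the limit. These were a region over Mboat4 with 66.9 reads with both cytokines and 70.5 with IFNγ at 4 h (FDR there 0.00973), and a region over Exph5 with 44.1 reads with both and 39.8 with IFNγ (FDR 0.00911). The third, over Gpr180, had 43.5 reads with both cytokines and 30.6 with IL-4 at 4 h (FDR 0.00910). Near the limit, membership therefore turned on a few reads.

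Among the 20 regions with the most reads, the margin ran from 1.09 times the reads needed (Tmcc1) to 5.15 times (near Rrp1b), and 16 had at least 1.5 times. Sil1, which encodes a nucleotide exchange factor for the chaperone BiP of the endoplasmic reticulum, held the region with the most reads, chr18:35370401-35385600 (mm10), inside the gene. It had 1065 normalised reads with both cytokines at 4 h and 145 with both at 2 h, and no island in the other 11 libraries. Scaled to the least favourable other library, its reads were 4.28 times those needed. Rora, the gene of the nuclear receptor RORα, held the next, chr9:68892801-68906600, with 868 reads with both cytokines at 4 h, 156 with both at 2 h and 73.5 with IL-4 at 2 h. For Rora the both-cytokine reads at 2 h were 2.13 times those with IL-4 alone, over islands of 4200 bp against 2200 bp, and 1.12 times per covered kb. A region 1800 bp from the Rora one was listed in all 4 libraries of the rule. That neighbour had 743 reads with both at 4 h, 293 with IFNγ, 577 with IL-4 and 671 in untreated cells.

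The next regions are given with the gene nearest to them. The region chr5:135589201-135598400, 16078 bp from Ccl24, the gene of an eosinophil-attracting chemokine (eotaxin-2), had 328 reads with both cytokines at 4 h and 140 with both at 2 h, and none listed elsewhere. A separate region 1000 bp away had 889 reads with both at 4 h and 177 with IL-4. In the same run of regions, chr5:135522001-135531000 inside Hip1, which encodes a clathrin-binding protein, had 262 reads at 4 h and 134 at 2 h with both cytokines. The region 1800 bp from it was listed in all 4 libraries of the rule. That neighbour had 5875 reads with both at 4 h, 209 with IFNγ, 1493 with IL-4 and 606 in untreated cells. Ikzf2, the gene of the transcription factor Helios, had a region in its span, chr1:69636801-69646200, with 290 reads, and another 99607 bp away, chr1:69423601-69431600, with 336 reads. Neither Ikzf2 region was listed in any of the other 12 libraries. The one in the gene span lay 1200 bp from a region that single cytokines also had. That neighbour had 1150 reads with both at 4 h, 120 with IFNγ and 50.0 with IL-4. A region 10536 bp from Rrp1b, a gene for ribosomal RNA processing, chr17:32073401-32078200, had 338 reads with both cytokines at 4 h, 296 with both at 2 h and 72.4 with IL-4 at 2 h. Its 2 h ratio of both cytokines over IL-4 was 4.08 in reads and 1.93 per covered kb, over 3800 bp against 1800 bp.

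Several strong regions had more reads at 2 h than at 4 h. Selp encodes P-selectin, the adhesion receptor that lets leukocytes roll on vessel walls, and its region chr1:164108601-164127000 covers the transcription start. It had 344 reads with both cytokines at 4 h, but 1256 with both at 2 h and 1528 with IFNγ at 2 h. At 2 h the both-cytokine reads were 0.82 times those with IFNγ alone, over 16200 bp against 18400 bp, and 0.93 times per covered kb. The region chr10:34060401-34074000 in Trappc3l, a paralogue of a subunit of the vesicle-tethering TRAPP complex, had 237 reads with both at 4 h, 852 with both at 2 h and 222 with IFNγ at 2 h. Its 2 h ratio over IFNγ was 3.84 in reads and 2.09 per covered kb, over 13600 bp against 7400 bp. Prim2 (large primase subunit), at chr1:33449001-33456200, had 237 reads with both at 4 h, and at 2 h 421 with both against 130 with IFNγ, a ratio of 3.25 in reads and 1.81 per covered kb, over 7200 bp against 4000 bp.

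A region 10929 bp from Purg, at chr8:33428401-33436400, had 280 reads with both at 4 h, 433 with both at 2 h and 70.3 with IFNγ at 2 h, and Gad2 (glutamate decarboxylase), at chr2:22679601-22685800, had 282, 426 and, with IL-4 at 2 h, 85.7. The 2 h ratio over IFNγ for Purg was 6.17 in reads and 1.94 per covered kb (7000 bp against 2200 bp), and that over IL-4 for Gad2 was 4.98 in reads and 2.09 per covered kb (6200 bp against 2600 bp). For Rhbg, the gene of an ammonium transporter, the direction turned with the measure. Its region chr3:88230201-88244800 had 436 reads with both at 4 h, and at 2 h 206 with both against 277 with IL-4, a ratio of 0.75 in reads but 1.13 per covered kb (5800 bp against 8800 bp).

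Of the 20 regions with the most reads, 13 overlapped a protein-coding gene and 2 held a transcription start. With both cytokines at 2 h 13 of the 20 were listed, with IFNγ at 2 h 4 and with IL-4 at 2 h 5. At least 1 knockdown library listed 4 of the 20, and 5 were listed in no other library. Those 5 were both Ikzf2 regions, a region 18965 bp from Prr15 (292 reads), one in Pex14, a peroxisomal import gene (271 reads), and one in Chn2, which encodes a Rac GTPase-activating protein (241 reads). The rest of the 20 lay in Mef2a, a MADS-box transcription factor gene (239 reads), in Tmcc1 (233 reads), 75732 bp from Jcad (334 reads) and 68326 bp from Nabp1 (245 reads).

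**Figure D2:**
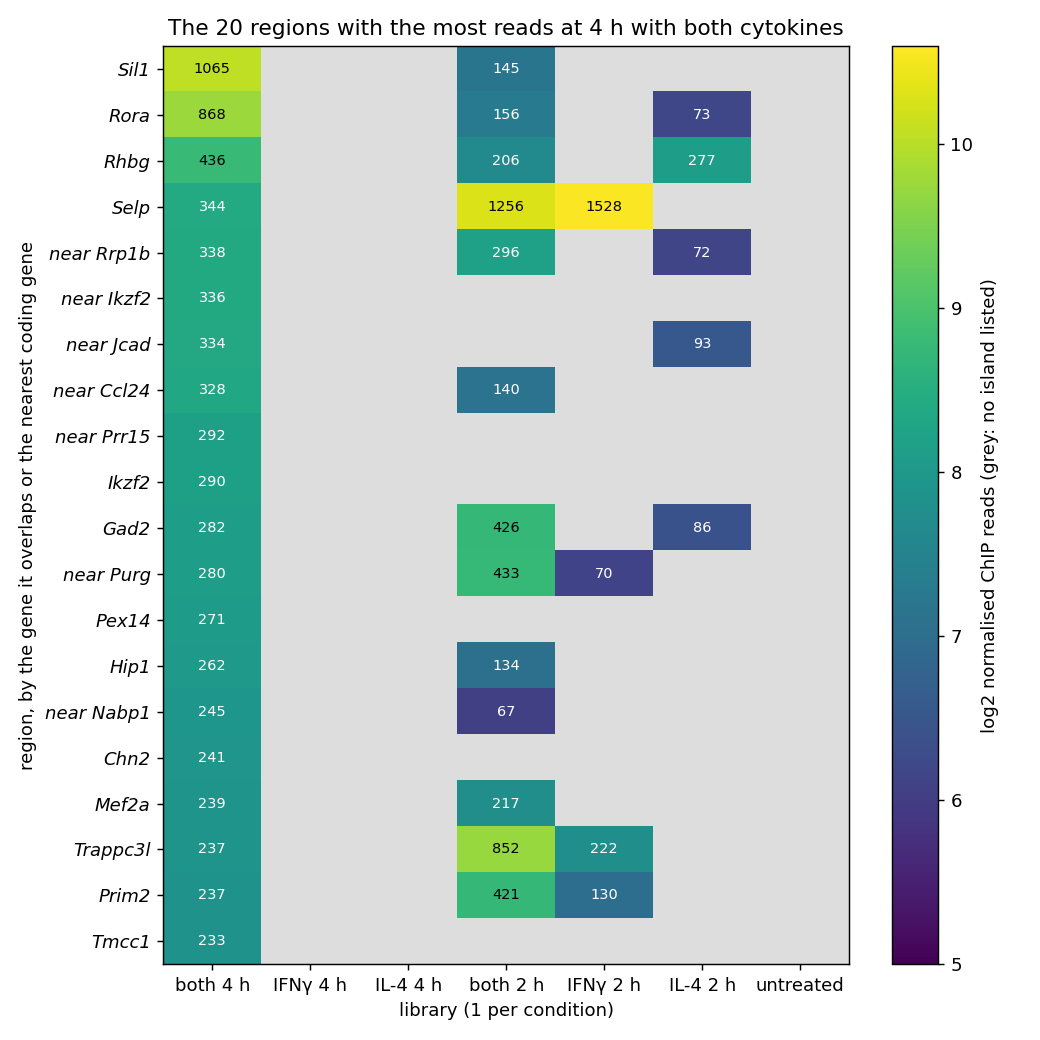
Rows are the 20 regions with the most normalised reads at 4 h with both cytokines, named by the gene they overlap or lie nearest to, and columns are the 7 libraries of the cytokine experiment. Colour and numbers give normalised reads (log2 colour scale); grey means that no island was listed, which for IFNγ 4 h, IL-4 4 h and untreated is how the regions were chosen. The both-cytokine column at 2 h is filled in 13 of 20 rows.

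Few of the regions held a promoter, and the strongest that did are shown so that the sequence at stake can be read. A transcription start lay inside 49 of the 832 regions (5.89%), against 26.6% of all 39569 regions, and the shares of the IFNγ, IL-4 and untreated sets were 5.57%, 5.45% and 5.17%. Those starts gave 56 promoters of 53 genes, 33 of them protein-coding. The 4 protein-coding promoters in the regions with the most reads were those of Selp, Mt3 (metallothionein-3, a metal-binding protein), Stard13 and Gfi1 (a transcriptional repressor of blood cells). Each is printed from 250 bases before to 50 after the start, from RefSeq (GRCm38.p6), 5′ to 3′ on the gene's strand, and capitals mark a match to the AP-1 motif TGANTCA.
Selp: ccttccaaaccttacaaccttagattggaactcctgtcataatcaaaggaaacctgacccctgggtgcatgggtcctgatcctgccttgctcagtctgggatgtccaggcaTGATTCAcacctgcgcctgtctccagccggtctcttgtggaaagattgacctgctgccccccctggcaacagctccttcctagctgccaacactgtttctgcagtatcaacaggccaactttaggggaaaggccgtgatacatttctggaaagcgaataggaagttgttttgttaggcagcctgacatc
Mt3: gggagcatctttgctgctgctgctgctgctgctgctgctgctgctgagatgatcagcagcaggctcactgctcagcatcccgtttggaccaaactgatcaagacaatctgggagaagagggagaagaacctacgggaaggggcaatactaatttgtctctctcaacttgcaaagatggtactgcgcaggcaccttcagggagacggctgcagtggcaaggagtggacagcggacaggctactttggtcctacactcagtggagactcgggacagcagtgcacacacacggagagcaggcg
Stard13: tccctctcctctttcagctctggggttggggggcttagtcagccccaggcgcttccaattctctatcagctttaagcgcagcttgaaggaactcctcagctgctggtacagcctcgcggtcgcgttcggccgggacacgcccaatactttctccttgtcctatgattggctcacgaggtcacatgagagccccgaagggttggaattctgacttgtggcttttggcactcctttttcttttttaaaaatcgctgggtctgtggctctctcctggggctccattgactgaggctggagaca
Gfi1: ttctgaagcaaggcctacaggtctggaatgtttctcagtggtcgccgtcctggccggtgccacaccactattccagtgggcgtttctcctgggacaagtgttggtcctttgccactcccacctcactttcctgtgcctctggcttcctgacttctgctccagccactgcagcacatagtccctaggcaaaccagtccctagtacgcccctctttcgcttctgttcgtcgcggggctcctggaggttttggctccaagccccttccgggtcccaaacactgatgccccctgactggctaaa
They lie at chr1:164115014-164115313 (plus strand), chr8:94152357-94152656 (plus), chr5:151190144-151190443 (minus) and chr5:107724294-107724593 (minus). The Mt3 region had 156 reads with both cytokines at 4 h and 47.8 with both at 2 h, and none listed in the other 11 libraries. A region touching it, chr8:94147201-94152400, had 46.1 reads with both cytokines and 63.8 with IFNγ at 4 h. These regions stayed apart because joining needed an overlap of at least 1 bp. The absence of an island with IFNγ therefore does not extend to the chromatin beside the Mt3 region. The Stard13 region had 145 reads with both at 4 h, 83.7 with IL-4 at 2 h, and 69.1 and 70.4 in shJunB and scramble cells with IFNγ. Gfi1 had 138 reads with both at 4 h and 77.7 with both at 2 h; it was also listed in 5 knockdown libraries, at 145, 167 and 154 reads in shJunB, shCEBPb and scramble cells with IFNγ and at 108 and 110 in shCEBPb and scramble cells without.

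Motif matches were searched on both strands in the 56 promoters and in all 32851 promoters of the table. The IFNγ-activated site TTCNNNGAA, the DNA motif of a STAT dimer, was in 10.7% against 8.30% of all promoters. TTCNNNNGAA, the spacing that STAT6 prefers, was in 7.14% against 6.95%, and the interferon-stimulated response element core GAAANNGAAA in 7.14% against 3.44%. TGANTCA was in 8.93% against 7.81%, the C/EBP motif TTGCNNAA in 10.7% against 10.8%, and the PU.1 motif AGAGGAAG in 7.14% against 4.55%. With 56 promoters each share rests on 4 to 6 matches, and motifs of 1 family can overlap.

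The regions also overlapped 6 miRNA hairpins. The one in the strongest region was that of miR-12183-5p, in a region over Serpina3i, chr12:104268801-104274800, which had 219 reads with both at 4 h, 214 with both at 2 h and 79.0 with IFNγ at 2 h. Its mature sequence is printed from RefSeq with the seed, bases 2 to 8, in capitals.
miR-12183-5p: gCUUCUUCucuguccuga

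Most of the regions lay inside genes or near other acetylated chromatin. A protein-coding gene span was overlapped by 509 (61.2%), against 67.6% of all regions, and 66 (7.93%) were over 100 kb from a protein-coding gene, against 7.16% of all regions. The nearest island of the IFNγ 4 h, IL-4 4 h or untreated library lay at a median of 8100 bp, and within 10 kb for 481 regions (57.8%). The shares within 10 kb were 44.3%, 49.6% and 47.9% in the IFNγ, IL-4 and untreated sets, each measured to the islands of its own 3 other libraries. Only 23 regions (2.76%) were farther than 100 kb.

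The acetylated neighbours tended to have longer islands and more reads with both cytokines. A neighbouring region within 10 kb, measured from region edge to region edge, existed for 513 of the 832 regions, 497 distinct ones. Of the 497, 270 (54.3%) were listed in all 4 libraries. The share was 52.3% of the 31726 regions listed with IFNγ at 4 h, with IL-4 at 4 h or in untreated cells. In the 390 neighbours listed in both libraries, the log2 ratio of both cytokines over IFNγ had a median of 0.27, against -0.07 in all 21257 such regions. Over IL-4 the median was 0.41 in 379 neighbours against -0.08, and over untreated cells 0.48 in 302 neighbours against -0.06. A ratio of at least 2-fold over IFNγ was seen in 21.0% of neighbours against 7.17% of all regions, over IL-4 in 30.6% against 12.5%, and over untreated cells in 34.1% against 12.5%. These differences were smaller per covered kb. There the medians were 0.02 over IFNγ, -0.03 over IL-4 and 0.01 over untreated cells in the neighbours, against -0.14, -0.20 and -0.12 in all such regions, while the log2 ratios of covered length had medians of 0.24, 0.39 and 0.39 in the neighbours, against 0.11 over IL-4 and near 0 over IFNγ and over untreated cells in all such regions. These ratios come from the libraries that chose the 832 regions and were computed after their values had been seen, so they describe the surroundings and have no test.

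**Figure D3:**
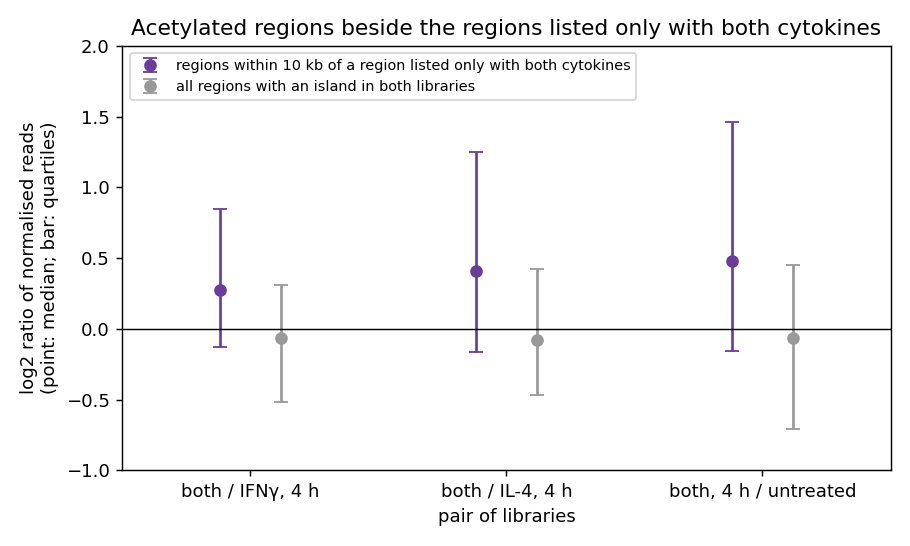
Log2 ratio of normalised reads, for the 4 h library with both cytokines over IFNγ 4 h, over IL-4 4 h and over untreated. Purple points are the medians of regions within 10 kb of 1 of the 832 regions and grey points those of all regions with an island in both libraries of the pair; bars span the quartiles. The purple medians are 0.27, 0.41 and 0.48 and the grey ones lie between -0.08 and -0.06; reads are sums over islands called separately, so the ratios include differences in covered length.

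Some genes held several of the regions. Within 100 kb of one another, 271 regions formed 110 runs of 2 or more, and the longest runs had 5. By summed reads the first of these was at Sil1 with 1408 normalised reads over 211 kb. Next was chr1:69241601-69442800 with 853, which had Erbb4 or Ikzf2 as nearest gene but overlapped neither. One at Dock2 and Insyn2b followed with 708. Dock2 encodes an activator of Rac that leukocytes need to migrate. St6galnac3, a sialyltransferase gene, was touched by 6 regions, more than any other protein-coding gene, and 4 of these were also listed with both cytokines at 2 h. Sil1, Dock2 and Pcca (a subunit of propionyl-CoA carboxylase) were touched by 5 each. In all, 464 of 21887 protein-coding genes (2.12%) were touched by a region in their span or 1 kb either side, 52 of them by at least 2. Of the 464 genes 407 (87.7%) also held a region listed in an IFNγ 4 h, IL-4 4 h or untreated library, and 369 (79.5%) held one listed in all 4. The runs and these gene counts have no share over all regions or all genes beside them, so nothing is read from their size. By chromosome, the regions made up from 1.33% (chromosome 15) to 2.75% (X) of all regions, leaving aside the 8 regions of chromosome Y, which held none.

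Of the listed target genes of either cytokine 6 were touched, and where they were, a stronger region of the same gene lay nearby. Of 23 genes of classical activation, the inflammatory program, 3 were touched (Nos2, Il12a and Cd40), and of 39 genes of alternative activation, the IL-4 program, 3 (Tmem26, Tfec and Ptgs1). Tfec was also the only one of 49 macrophage transcription factor genes. None was touched of 16 IFNγ-induced GTPase genes, 23 antigen presentation genes, 22 antiviral genes, 31 genes of JAK-STAT signalling, 29 of NF-κB and inflammatory cytokines, 24 of cholesterol and lipid metabolism, 12 housekeeping genes or any list of cell type markers. These counts have no test, and the share over all protein-coding genes, many of which had no acetylated region, was 2.12%.

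Nos2 encodes inducible nitric oxide synthase, the enzyme by which mouse macrophages make nitric oxide against microbes. Its region chr11:78945401-78953400 had 62.2 reads with both cytokines at 4 h, 336 with both at 2 h and 78.6 with IL-4 at 2 h, and none listed with IFNγ at 2 h. At 2 h the both-cytokine reads were 4.27 times those with IL-4, over 6800 bp against 4800 bp, and 3.02 times per covered kb. The main Nos2 region, chr11:78853401-78927400, was listed in all 4 libraries, with 4016 reads with both at 4 h, 11382 with IFNγ, 386 with IL-4 and 1293 in untreated cells.

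Ptgs1, the gene of cyclooxygenase-1, had a region chr2:36256601-36260600 with 95.6 reads with both cytokines at 4 h, and 61.0 in untreated shCEBPb cells. It lay 800 bp past the main region of the gene, which had 4239 reads with both at 4 h, 189 with IFNγ, 4308 with IL-4 and 936 in untreated cells. At Tmem26 a region of 41.5 reads lay beside one with 1301 reads with both, 99.0 with IFNγ, 3909 with IL-4 and none listed in untreated cells. The first was listed in no other library. Il12a, which encodes the p35 subunit of interleukin-12, had a region of 70.2 reads that was listed in no other library. The next Il12a region had 326 reads with both at 4 h and 182 with IL-4, and none listed with IFNγ or in untreated cells. Cd40, the gene of a costimulatory receptor, had a region of 40.8 reads beside one of 4869 with both, 6740 with IFNγ, 2672 with IL-4 and 1713 in untreated cells. Tfec, a transcription factor gene of the MiT family, had a region of 44.8 reads with both at 4 h and 95.9 with IL-4 at 2 h, in a gene whose main region had 4286 reads with both at 4 h, 2676 with IFNγ, 4274 with IL-4 and 3639 in untreated cells. At these 5 genes and at Nos2, the both-cytokine-only island was at most 95.6 reads.

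The 2 h libraries were outside the rule, though their islands helped to set the merged regions. At 2 h 352 of 832 (42.3%) were listed with both cytokines, 206 (24.8%) with IFNγ and 60 (7.21%) with IL-4. Among all 17944 regions with no island in untreated cells, whatever the other libraries showed, the shares were 34.2%, 27.9% and 19% in the same libraries. The choice required an island with both cytokines at 4 h and none with either alone, which was not asked of the background regions, so nothing is read from the direction of these differences. The comparison sets put this beside their own 2 h libraries: 22.9% of the IFNγ 4 h set were listed with IFNγ at 2 h, and 38.5% of the IL-4 4 h set with IL-4 at 2 h. With both cytokines at 2 h, 17.8% of the IFNγ set, 11.99% of the IL-4 set and 11.8% of the untreated set were listed. There is no test of these differences, since each condition had 1 library.

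By pattern, 453 regions (54.4%) had no island at 2 h in any of the 3 libraries, 136 (16.3%) had one with both cytokines and with neither alone, and 174 (20.9%) with both and with IFNγ. Another 23 were listed in all 3 libraries, 19 with both and IL-4, 18 with IL-4 alone and 9 with IFNγ alone. Of the 206 regions listed with IFNγ at 2 h, 197 were also listed with both. Where both libraries listed the region, the log2 ratio of both cytokines over IFNγ had a median of 0.19 (197 regions) against -0.01 over all 20847 such regions, and 33 (16.8%, against 4.91% of all) were at least 2-fold higher and 7 (3.55%, against 6.69%) at least 2-fold lower. Over IL-4 the median was 1.04 (42 regions) against -0.06 over all 18588, with 21 (50%, against 13.6% of all) at least 2-fold higher and 2 (4.76%, against 11.6%) lower. Per covered kb the median log2 ratio was 0.25 over IFNγ against 0.11 over all, with 9 regions (4.57%, against 1.67%) at least 2-fold higher and 0 lower. Over IL-4 it was 0.62 against 0.11, with 15 regions (35.7%, against 7.00%) at least 2-fold higher and 0 lower.

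The 2 h pattern was also set against depth. Of the 155 regions listed with both cytokines and not with IFNγ at 2 h, 155 would still have passed the Poisson limit at the depth of the IFNγ library, and of the 310 not listed with IL-4, 309 at the depth of that library. In the first group 44 had at least 2 times the reads needed, in the second 156. The 2 h libraries held 26.9 M reads with both cytokines, 24.1 M with IFNγ and 23.6 M with IL-4. At such close depths an island that was listed nearly always passes. These counts therefore cannot tell whether depth or sampling decided a listing.

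**Figure D4:**
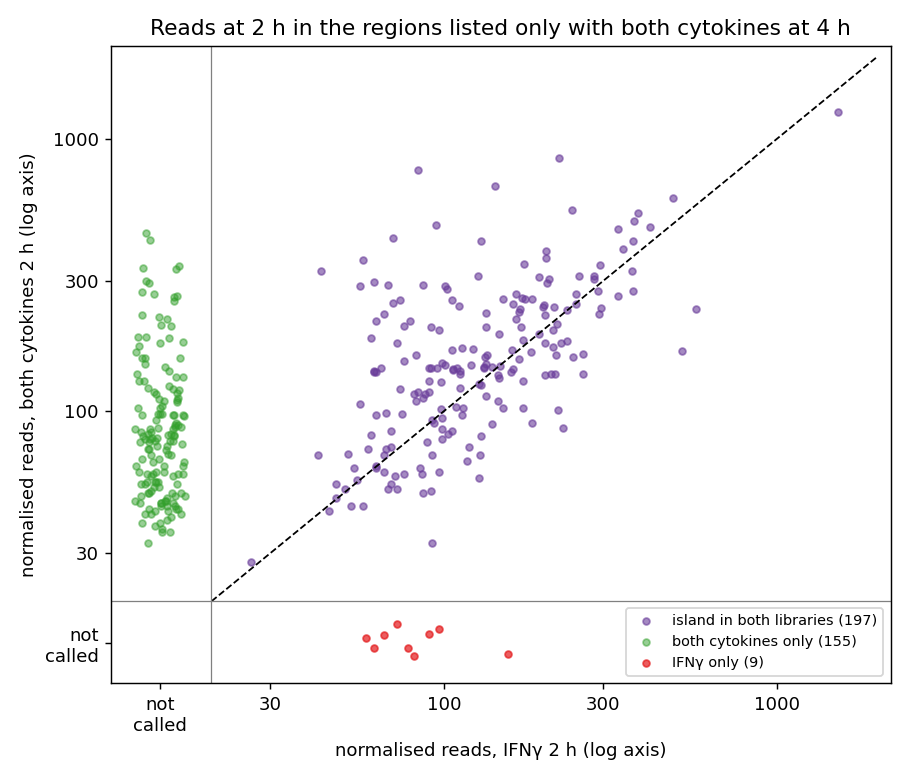
Normalised reads at 2 h with both cytokines (y axis) against IFNγ (x axis), both on log axes, for those of the 832 regions with an island in either library. Purple points have an island in both libraries (197), green points only with both cytokines (155) and red points only with IFNγ (9); points in the strips marked not called have been spread sideways for legibility, and the dashed line is equality. Most points lie on or above the line or in the left strip.

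The regions with the most reads at 2 h that had no island with either cytokine alone at that time lay over Uhrf2, near Man1a, over Pid1, over Gab1 and near Ndfip2. Uhrf2 encodes a ubiquitin ligase that binds DNA, and its region chr19:30048001-30053400 had 169 reads with both at 4 h and 450 with both at 2 h. A region 269585 bp from Man1a, a mannosidase gene, had 42.1 at 4 h and 341 at 2 h, and was 210800 bp from the nearest island of the other 3 libraries of the rule. The Pid1 region had 86.3 at 4 h and 332 at 2 h, and 74.6 in shJunB cells with IFNγ. Gab1, an adaptor of receptor tyrosine kinase signalling, had 90.3 at 4 h and 302 at 2 h, and a region 286703 bp from Ndfip2 had 199 at 4 h and 269 at 2 h. All 5 had fewer reads at 4 h than at 2 h. For the 352 regions listed with both cytokines at both times, the median log2 ratio of 4 h over 2 h was -0.72. It was -0.03 over all 20716 regions listed in both libraries. At 4 h 137 of the 352 (38.92%, against 10.55% of all) had at least 2-fold fewer reads than at 2 h. Another 15 (4.26%, against 8.39%) had at least 2-fold more. The islands of the 352 were shorter at 4 h, with a median of 2400 bp against 3000 bp at 2 h. Per covered kb the median log2 ratio was -0.50 against -0.21 over all. By that measure 54 regions (15.34%, against 5.00% of all) were at least 2-fold lower and 1 (0.28%, against 0.74%) higher. Since the 4 h reads helped to choose the regions, these ratios are a description.

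Tfec and Ptpn2 had a region within 10 kb that was listed in all 3 libraries at 2 h. Near Tfec, chr6:16903801-16908200 had 83.6 reads with both at 4 h, and at 2 h 243 with both, 111 with IFNγ and 61.2 with IL-4. Near Ptpn2, whose phosphatase product restrains JAK-STAT signalling, chr18:67731001-67739000 had 170 with both at 4 h, and at 2 h 298 with both, 61.5 with IFNγ and 64.3 with IL-4. For Tfec the 2 h ratio of both over IFNγ was 2.19 in reads and 1.79 per covered kb, and that over IL-4 3.97 and 2.17, with islands of 4400 bp with both, 3600 bp with IFNγ and 2400 bp with IL-4. For Ptpn2 the ratios in reads were 4.85 over IFNγ and 4.63 over IL-4, but the islands covered 6200 bp with both and 1600 bp with either alone, and the reads per covered kb were 48.1 with both, 38.4 with IFNγ and 40.2 with IL-4. Also within 10 kb of a listed gene were regions near Ccl22 (144 reads with both at 4 h), Rel (109), Ido1 (50.8) and Oas3 (47.5). None of these 4 was listed at 2 h. Ccl22 encodes a chemokine that attracts T cells, and its region was listed in all 6 knockdown libraries. It had 138, 134 and 133 reads in shJunB, shCEBPb and scramble cells with IFNγ, and 62.6, 110 and 90.8 in the same cells without.

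In the knockdown experiment the regions were listed less often than at 2 h with both cytokines. With IFNγ, 130 (15.6%) were listed in shJunB, 119 (14.3%) in shCEBPb and 97 (11.7%) in scramble cells, and without it 66 (7.93%), 103 (12.4%) and 91 (10.9%). In the same order the libraries held 22.2, 23.9 and 14.3 M reads with IFNγ and 24.2, 29.5 and 22.0 M without. The part of depth in these shares was not tested. The background shares, over the 17944 regions with no island in untreated cells of the cytokine experiment, were 32.8%, 30.2% and 26.5% with IFNγ and 18.3%, 26.6% and 22.1% without. The shares were under that background in all 6 libraries, but the background regions could have an island with IFNγ or IL-4 at 4 h and the chosen ones could not. No knockdown library listed 600 (72.1%) of them, against 54.6%, 70.3% and 31.9% of the IFNγ, IL-4 and untreated sets. At least 1 IFNγ library and no untreated one listed 93 (11.2%), the reverse held for 49 (5.89%), and 90 were listed in both kinds. In the set listed only with IFNγ at 4 h, 29.4% had the first of these patterns and 1.97% the second. In the set listed only in untreated cells, 43.8% had the second and 1.32% the first.

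**Figure D5:**
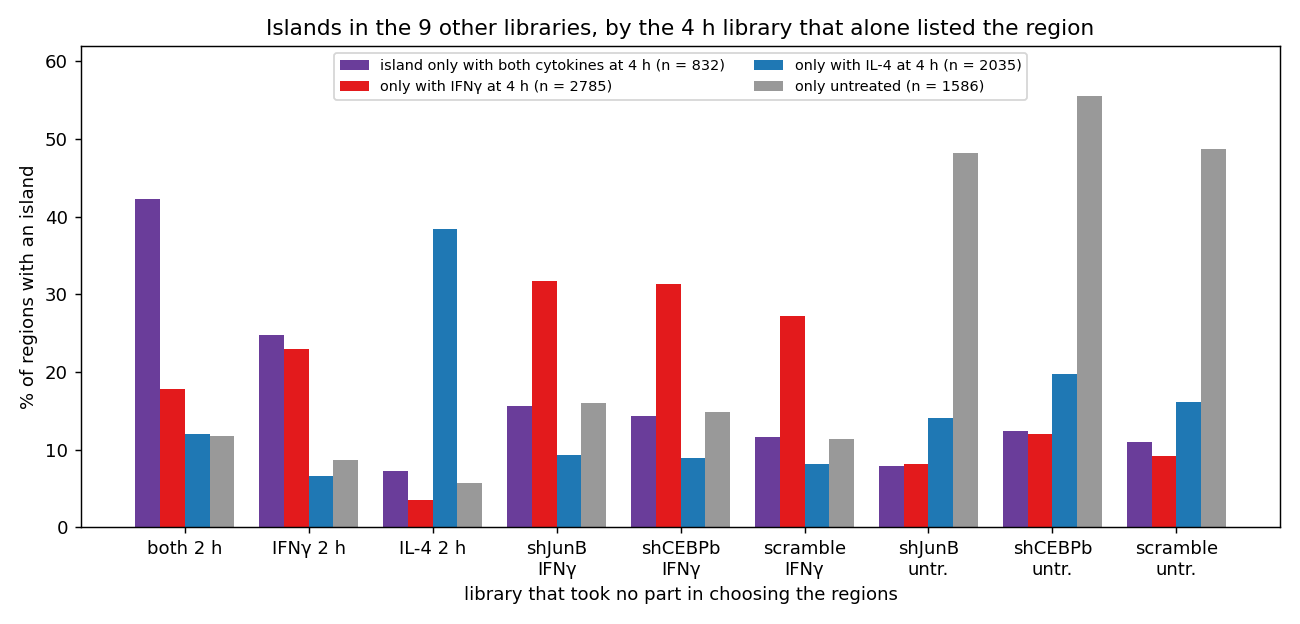
Percent of regions with an island in each of the 9 libraries outside the rule (x axis), whose islands still helped to set the merged regions. Colours mark the regions listed only with both cytokines at 4 h (purple), only with IFNγ at 4 h (red), only with IL-4 at 4 h (blue) and only in untreated cells (grey). At 2 h the purple bar is the highest of the 4 with both cytokines (42.3%) and also with IFNγ (24.8%, against 22.9% for red). It lies between 7.93% and 15.6% in the knockdown libraries.

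Over all 9 libraries outside the rule, 506 regions (60.8%) were listed at least once and 326 (39.2%) never. The shares never listed there were 42.3%, 41.5% and 29.1% in the IFNγ, IL-4 and untreated sets. A library without the pair of cytokines listed 407 (48.9%), and 339 (40.7%) were listed somewhere with IFNγ alone. Only 99 (11.9%) were listed with both cytokines at both times and in none of the other 11 libraries. So the absence of an island in the 3 single libraries of the rule did not mean that a region was never listed without the pair. The counts of 407, 339 and 99 have no share of the other sets beside them.

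Reads could be tested for IFNγ and the shRNAs only where all 6 knockdown libraries had an island, which held for 17047 regions and for 22 of the 832. The quasi-likelihood test of edgeR, fitted on all 17047 with Benjamini-Hochberg adjustment, called 22.7% higher and 21.9% lower with IFNγ. Of the 22 regions 3 were called higher and 1 lower. The median log2 change was 0.18 over the 22 and 0.01 over all. The 3 pairs had different shRNAs and are not replicates of 1 condition.

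The 3 whose island reads rose were regions over Ccdc102a, near Tubg2 and over Gm10499 and Gm8909. At Ccdc102a, chr8:94916001-94920200, the reads with IFNγ were 104, 153 and 124 in shJunB, shCEBPb and scramble cells, and without it 78.7, 82.7 and 67.0. The groups did not overlap, and the log2 change was 0.75 ± 0.18 (SE; edgeR adjusted p = 0.0227). The islands covered 3400, 4200 and 3400 bp with IFNγ and 1800, 2000 and 1600 bp without, and with covered length as an offset the log2 change was -0.28 ± 0.20 (edgeR adjusted p = 0.363). The region 4274 bp from Tubg2, a γ-tubulin gene, at chr11:101146601-101151600, had 121, 192 and 121 reads with IFNγ and 69.2, 37.4 and 78.9 without, in the same order of cells. These groups did not overlap either, and the log2 change was 1.27 ± 0.38 (edgeR adjusted p = 0.0434), but 0.38 ± 0.26 per covered length (edgeR adjusted p = 0.338). Gm10499 and Gm8909 are predicted genes among the class I histocompatibility genes, copies of which can share reads, so the value is uncertain. Their region, chr17:36145001-36146000, had 65.8, 78.5 and 70.4 reads with IFNγ and 43.6, 47.9 and 43.2 without, a log2 change of 0.69 ± 0.17 (edgeR adjusted p = 0.0268). The islands there had the same lengths with and without IFNγ, and per covered length the change was 0.69 ± 0.22 (edgeR adjusted p = 0.0454).

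The region whose island reads fell lay 10265 bp from Gsg1, at chr6:135264601-135277800. A region touching it, chr6:135258001-135264600, had 95.6 reads with both cytokines and 221 with IL-4 at 4 h, and 132 in untreated cells of the cytokine experiment. The region near Gsg1 had 82.2, 150 and 57.3 reads with IFNγ and 171, 196 and 137 without, in the same order of cells. The groups overlapped, through the 150 of shCEBPb cells, but each pair of libraries was lower with IFNγ, and the log2 change was -0.84 ± 0.22 (SE; edgeR adjusted p = 0.0293). The islands covered 3200, 4200 and 1800 bp with IFNγ and 9200, 7600 and 6400 bp without, and per covered length the direction turned, to 0.52 ± 0.19 (edgeR adjusted p = 0.0721). So 1 of the 4 calls, at Gm10499 and Gm8909, was kept per covered length, a fit that called 2042 of all 17047 regions higher and 1378 lower. The calls depended on single pairs of libraries. Of the 22 regions, 1 was called higher and 0 lower without the shJunB pair, and 0 higher and 1 lower without the shCEBPb pair. Without the scramble pair, 0 were called either way. Over all 17047 regions these fits called 2906 to 2942 higher and 2660 to 2913 lower, against 3877 and 3740 with all pairs.

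For shJunB and for shCEBPb against scramble, edgeR called 0% of the 17047 regions, and 0 of the 22. At an unadjusted p under 0.05 stood 2671 and 1353 of all regions, and 1 and 2 of the 22. DESeq2 called 407 regions higher and 209 lower for shJunB and 76 higher and 1 lower for shCEBPb, and 0 of the 22 for either. Whether the shRNAs lowered their targets cannot be read from H3K27ac.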

How the data were processed

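H3K27ac ChIP-seq of 13 libraries, 1 per condition, was deposited as 1 island list per library. Alignment was with Bowtie2 2.2.6 and island calling with SICER 1.1, on mm10 (GRCm38), per the submitters' processing notes. The deposited counts are raw ChIP and control reads in each island. The deposited p-value and FDR, and the deposited ratio of ChIP to scaled control reads, are the authors' own. Island edges lie on a 200 bp grid. Recomputing each p-value from a Poisson distribution matched the deposited one to a relative error of 6.25e-12, for a control of 14.1 M reads; this also gave the library totals. The number of columns left without a sample was 0.

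Islands overlapping by at least 1 bp were merged with pandas 2.3.3. Raw reads were scaled by a median-of-ratios factor for each library. Knockdown libraries were fitted with edgeR 4.0.16 (TMM, shRNA and IFNγ as terms, adjusted p under 0.05), which was tested on simulated data, with DESeq2 1.42.0 as an alternative. Other comparisons have 1 library on each side and no test. Read sums move with the island length called in each library, so ratios are also given per covered kb, and edgeR was rerun with the log of covered length as an offset; both were added after the values had been seen. Genes, promoters and miRNAs are RefSeq GRCm38.p6, joined by coordinates. The sequence of the regions themselves was not used here. The regions and the gene lists were chosen with earlier results of these data known. Named regions are the 20 with the most reads, all touching a listed gene, those called by edgeR, the 5 with the most both-cytokine reads at 2 h among those listed with neither cytokine alone, and the 3 nearest the FDR limit on each side. The promoter, miRNA, run and neighbour accounts follow position and reads, and the neighbours were added after the values had been seen.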

Additional observations from a re-analysis of the deposited data

How the results depend on the processing

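The number of regions was 832, and it lay between 609 and 1087 when islands were merged over the 4 libraries of the rule only (1087), at 400 bp of overlap or more (846), with touching islands merged too (819, chosen after seeing the data), with reads scaled to the other depths (754) or with an FDR under 1e-05 (609). With at least 50 normalised reads it was 529, and the set listed only with IL-4 then held 1239. That filter moved the share listed with both cytokines at 2 h to 46.3% and in untreated shCEBPb cells to 9.83%. Merging over the 4 libraries alone, in which islands of other libraries no longer join a region to those of the rule, moved the share listed with IL-4 at 2 h to 10.4% and the shares in shJunB, shCEBPb and scramble cells to 23.6%, 20.5% and 16.1% with IFNγ and 14.2%, 18.6% and 15.7% without. The order of the 3 libraries at 2 h was the same under all of these. For IFNγ in the knockdown cells, DESeq2 called 1 of the 22 regions higher, and subtracting control reads left 0 lower. Of all 17047 regions, DESeq2 called 3444 higher and 3382 lower. With control reads subtracted, 3859 of all were called higher and 4015 lower. Filling in missing islands tested 106 of the 832 regions, with 19 higher and 5 lower. It called 5817 of all 24374 regions tested higher and 5468 lower. Leaving out 1 pair of libraries gave 0 to 1 of the 22 regions higher and 0 to 1 lower. Of all 17047 regions it gave 2906 to 2942 higher and 2660 to 2913 lower. For shJunB, scaling by library totals called 77 regions higher and 32 lower and DESeq2 407 and 209; for shCEBPb DESeq2 called 76 and 1. The cause of these differences between tools was not tested. With the covered length of the islands as an offset (added after seeing the data), 1 of the 22 regions was called higher and 0 lower with IFNγ, and 2042 of all regions higher and 1378 lower; the regions at Ccdc102a and near Gsg1 changed sign. In the knockdown fit IFNγ is compared with untreated cells within each shRNA; the labels give no replicate numbers that would pair other libraries. Variation between cultures and between immunoprecipitations was not measured.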

Other observations

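The opposite pattern, an island with IFNγ and with IL-4 at 4 h but none with the pair or in untreated cells, was found in 316 regions (0.80% of 39569). Islands with the pair and with IFNγ, and with neither IL-4 nor untreated cells, were found in 2745 regions, and islands with the pair and with IL-4 only in 946.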
